A study of Mus musculus with 16 samples.

Results

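The genes described here are 46 genes of mitosis and chromosome segregation, taken by symbol from a raw count table of 25239 genes measured in mouse haematopoietic stem cells (HSCs). They comprise the mitotic cyclins, CDK1 and entry kinases, the spindle checkpoint with the anaphase-promoting complex, the chromosomal passenger complex, the centromere and kinetochore, the spindle kinesins, spindle assembly factors, the cytokinesis machinery, and condensin with the proteins of the mitotic chromosome. The rule for membership was gene function, with no threshold on values. All 46 genes were in the table, and all 46 were among the 14124 genes that passed the filter on low counts.

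The study measured bulk RNA from bone marrow HSCs of Selp knockout (SelpKO) mice and of SelpWT mice, with 16 libraries in 6 groups. P-selectin, encoded by Selp, is an adhesion receptor of platelets and endothelium, and PSGL-1 is its main ligand. The cultured cells of both genotypes that received PSGL-1 had 125 ng/mL of it for 24 h, giving 3 SelpKO and 2 SelpWT libraries. The cultured cells that received vehicle gave 3 SelpKO and 3 SelpWT libraries, and freshly sorted cells that were not cultured gave 2 SelpKO and 3 SelpWT libraries. All mice were 4 to 6 months old. Cultured cells were kept in StemSpan medium with fetal serum and the cytokines SCF, Flt-3 ligand and IL-11, and the duration of the vehicle culture is not given in the labels. The labels do not say whether P-selectin was deleted in the whole animal or in 1 lineage, nor whether the libraries of a group are from different mice. The p-values therefore cover only the spread among these libraries, which may be technical.

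A cell that enters mitosis activates CDK1 bound to cyclins A and B, condenses its chromosomes, builds a spindle and attaches each chromosome to it through the kinetochore. The spindle checkpoint holds back the anaphase-promoting complex until every chromosome is attached. Then separase cuts the cohesin between sister chromatids and the central spindle directs cytokinesis. Most of these genes are transcribed in a shared late wave of the cell cycle, in which the MuvB complex holds them silent in resting cells and activates them with B-MYB and FOXM1 in dividing cells. HSCs in unperturbed marrow are mostly quiescent, and cytokines in culture bring them into cycle. In bulk RNA, fewer cells in mitosis and less of each RNA per mitotic cell cannot be told apart.

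MuvB binds a short element, the cell cycle genes homology region (CHR, TTTGAA or TTCAAA on the opposite strand), which often lies near a CCAAT box (CCAAT or ATTGG) bound by NF-Y. The sequences below are shown because these 5 genes rose in culture in SelpKO cells and differ in how the elements lie in the stretches shown. Each runs 5′ to 3′ on the strand of the gene in RefSeq's GRCm38.p6, with CHR and CCAAT letters in capitals. Top2a, Kif11, Mki67 and Plk1 are shown from about 120 bases before the start, and Cdk1 without the bases that overlap an annotated exon. The regions are chr11:99024190-99024309, reverse strand for Top2a, chr19:37376262-37376381, forward strand for Kif11, chr10:69352939-69353032, reverse strand for Cdk1, chr7:135716380-135716499, reverse strand for Mki67 and chr7:122159315-122159434, forward strand for Plk1.
Top2a: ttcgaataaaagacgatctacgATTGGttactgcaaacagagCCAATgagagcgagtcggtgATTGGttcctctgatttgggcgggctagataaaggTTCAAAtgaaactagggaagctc
Kif11: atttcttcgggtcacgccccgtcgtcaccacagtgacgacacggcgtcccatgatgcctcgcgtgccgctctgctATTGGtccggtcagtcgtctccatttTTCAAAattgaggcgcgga
Cdk1: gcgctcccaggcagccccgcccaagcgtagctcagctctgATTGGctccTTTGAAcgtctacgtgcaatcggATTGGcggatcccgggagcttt
Mki67: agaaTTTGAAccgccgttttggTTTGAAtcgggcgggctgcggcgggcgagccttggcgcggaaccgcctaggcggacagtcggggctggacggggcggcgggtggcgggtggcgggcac
Plk1: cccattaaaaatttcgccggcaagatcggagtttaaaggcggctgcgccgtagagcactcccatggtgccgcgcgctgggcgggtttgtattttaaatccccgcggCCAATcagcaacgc
In the stretches shown, Top2a has 3 CCAAT boxes upstream of 1 CHR, Kif11 has 1 of each, and Cdk1 has a CHR between 2 CCAAT boxes. Mki67 has 2 CHR elements and no CCAAT box there, and Plk1 has 1 CCAAT box and no CHR. Outside them, Cdk1 has a CHR from position -15, among the bases left out, and Plk1 a CHR from position 31 after the start. Mki67 has CCAAT boxes from positions -188, -166 and -141. Farther upstream, Top2a has more of both elements and Cdk1 another CCAAT box.

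RefSeq promoters, covering 250 bases before to 50 after the start, were matched by symbol for 39 of the 46 genes. Those of Spc24, Aurkb, Tpx2, Ccna2, Kif20a, Smc4 and Incenp were not matched. A CHR on either strand lay in 31 of the 39 windows (79.5%), against 20.2% of 27025 genes with a window. A CCAAT box lay in 30 of 39 (76.9%), against 41.1% of all, and both elements lay in 26 of 39 (66.7%), against 8.97% of all. A CHR and a CCAAT box can share at most 1 base. Within 50 bases either side of the start, a window chosen after the positions had been seen, 28 of 39 (71.8%) held a CHR, against 5.72% of all. These matches describe letters in the genome and are not evidence of binding in these cells.

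Library totals ran from 12590539 to 24690824 counts, and 15 libraries detected 11101 to 13480 genes. Replicate 1 of the SelpWT PSGL-1 group stood apart with 9035 genes detected. Selp, the targeted gene, had 0 to 12.4 CPM (counts scaled to a library total of 1000000) in SelpKO libraries and 16.8 to 183 CPM in SelpWT libraries. The HSC markers Kit, Ly6a, Procr, Mecom, Hlf, Meis1 and Gata2 were detected in every library, while Slamf1, Fgd5 and Tek had 0 counts in 3, 1 and 1 of the 16. In the erythroid, granulocyte and monocyte, B and plasma cell, and T and NK cell lists, Hbb-bt, Hba-a1, Ms4a1, Ebf1, Jchain, Cd3e, Cd3d, Cd3g, Cd8a and Ncr1 had 0 counts in all 16 libraries. In the same lists Car2 (430 to 2750 CPM), Lyz2 (80.8 to 643 CPM), Prtn3 (16.5 to 570.1 CPM), Tfrc (10.7 to 189 CPM) and Cd79b (3.81 to 62.0 CPM) were detected in every library, and Nkg7, at up to 91.5 CPM, in all but 1.

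Summed over the 46 genes, mitotic RNA was lowest in freshly sorted SelpKO cells, higher in freshly sorted SelpWT cells, and highest in culture, where the genotypes overlapped. The sum was 9237, 7083 and 9110 CPM in SelpKO PSGL-1 cultures and 6124 and 9181 CPM in SelpWT PSGL-1 cultures. It was 8591, 7090 and 8797 CPM in SelpKO vehicle cultures and 7939, 6820 and 8521 CPM in SelpWT vehicle cultures. Freshly sorted cells had 2487 and 2967 CPM in SelpKO mice and 4266, 4238 and 3767 CPM in SelpWT mice. The fresh groups did not overlap, each vehicle group lay above its fresh group, and the vehicle groups overlapped each other. The ratio of group means, SelpKO over SelpWT, was 0.667 in fresh cells, 1.05 in vehicle and 1.11 in PSGL-1 cultures. Vehicle over fresh, it was 2.99 in SelpKO and 1.90 in SelpWT cells.

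**Figure D1:**
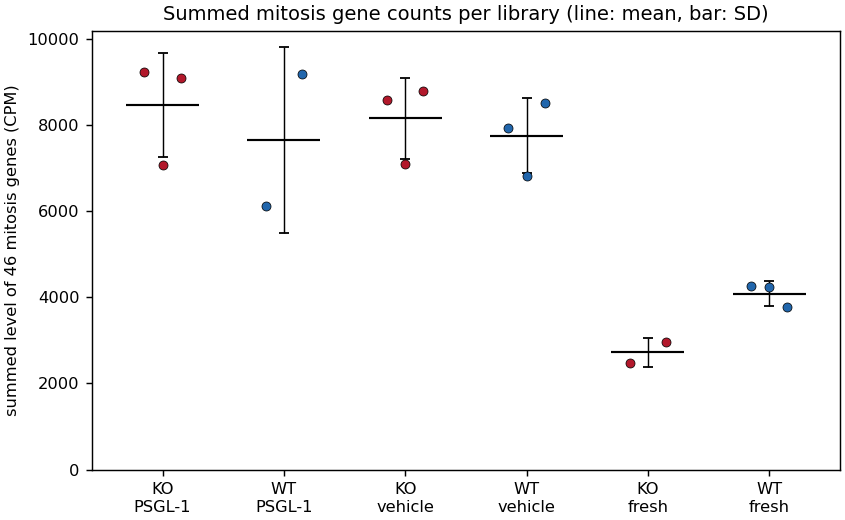
Summed level of the 46 mitosis genes in CPM (y axis) for each library (points), with group mean and SD (bars). The 2 fresh SelpKO libraries, at 2487 and 2967 CPM, lie below the 3 fresh SelpWT libraries at 3767 to 4266 CPM, and cultured libraries of both genotypes lie between 6124 and 9237 CPM.

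Per kilobase of exon (GENCODE vM21), the genes covered a wide range. Cdc20, the activator of the anaphase-promoting complex, had the highest level in vehicle cultures and fresh cells, with 153 ± 31.1 CPM per kb in SelpKO vehicle cultures and 137 ± 35.4 in SelpWT vehicle cultures, and 85.3 ± 31.1 in fresh SelpKO cells and 105 ± 13.2 in fresh SelpWT cells (SD, n = 3, 3, 2 and 3). Cyclin B2 (Ccnb2) ranked second in the same 4 groups, with 56.9 ± 4.56 CPM per kb in fresh SelpKO and 82.0 ± 18.4 in fresh SelpWT cells. In SelpKO PSGL-1 cultures the order was the other way, with 152 ± 50.5 CPM per kb for Ccnb2 and 138 ± 21.2 for Cdc20 (SD, n = 3), and in SelpWT PSGL-1 cultures Cdc20 had 156 ± 37.1, Plk1 117 ± 49.2 and Ccnb2 114 ± 73.3 (SD, n = 2). At the low end, the anillin gene Anln, which encodes a scaffold of the contractile ring, had 1.79 ± 2.34 CPM per kb in fresh SelpKO cells and 1.77 ± 0.653 in fresh SelpWT cells. The mean ± SD ranges of Cdc20 and Ccnb2 overlapped in all 4 groups, so the order of these neighbours is not separated by the spread. The median coefficient of variation across the 46 genes was 19.7% in the SelpKO PSGL-1 group, 41.5% in the SelpWT PSGL-1 group, 19.6% in SelpKO vehicle, 23.2% in SelpWT vehicle, 36.9% in fresh SelpKO and 28.9% in fresh SelpWT cells.

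In SelpKO cells 13 of the 46 genes rose in vehicle culture over fresh cells at an adjusted p under 0.05 in edgeR's quasi-likelihood test, beside 1.23% of all tested genes. None fell, beside 0.538% of all. All 46 log2 fold changes, vehicle over fresh, were above 0, as were 47.5% of all genes, with a median of 1.66, against -0.02 over all genes. In 43 of 46 the libraries did not overlap, beside 15.3% of all genes, and the 3 that overlapped were Espl1, Kif4 and Kif23. At an unadjusted p under 0.05, 37 of 46 were higher, beside 6.72% of all, and DESeq2 called 29, beside 3.95% of all, and limma 12, beside 1.27%. In SelpWT cells 9 of 46 rose, beside 1.23% of all genes, and none fell, beside 0.404% of all. Again all 46 were above 0, as were 45.5% of all genes, with a median of 1.04, against -0.07 over all genes. Of the 46, 26 did not overlap, beside 8.38% of all, and 24 were higher at an unadjusted p under 0.05, beside 6.74% of all. DESeq2 called 12 in SelpWT cells, beside 3.23% of all, and limma 18, beside 2.92%, so the genotype with more calls depended on the tool. Cdk1, Ccna2, Plk1, Aurkb, Tpx2, Top2a and Mki67 rose in both genotypes.

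Of the 6 cyclins and entry kinases, 4 rose in SelpKO and 3 in SelpWT culture in edgeR. Cdk1, the kinase that drives entry into mitosis (chr10:69335146-69352938, GRCm38, as for the positions that follow), had 329, 268 and 264 CPM in SelpKO vehicle cultures, against 119 and 66.5 CPM in fresh SelpKO cells. In SelpWT cells it had 301, 213 and 266 CPM in vehicle cultures, against 88.6, 133 and 85 CPM in fresh cells. No vehicle library of either genotype fell to the level of a fresh one, and the log2 fold change was 1.64 (SE 0.32, edgeR adjusted p = 0.0143) in SelpKO and 1.45 (SE 0.28, adjusted p = 0.0153) in SelpWT cells. Plk1 (chr7:122159439-122169873), the polo-like kinase of spindle assembly and mitotic exit, had 165, 175 and 206 CPM in SelpKO vehicle cultures, against 20.7 and 39.0 CPM in fresh SelpKO cells. In SelpWT cells it had 180.1, 240.1 and 224 CPM in vehicle cultures, against 46.2, 72.9 and 37.0 CPM in fresh cells. The rise was 6.31-fold in SelpKO (log2 2.66, SE 0.38, edgeR adjusted p = 0.00170) and 4.43-fold in SelpWT cells (log2 2.15, SE 0.32, adjusted p = 0.00227), with separate libraries in both.

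Cyclin A2 (Ccna2), the CDK partner from S phase to early mitosis, had 282, 180.2 and 259.9 CPM in SelpKO vehicle cultures, against 20.6 and 60.9 CPM in fresh SelpKO cells. SelpWT cells had 229, 196 and 298 CPM in vehicle cultures, against 95.2, 93.6 and 90.3 CPM in fresh cells. Every vehicle library lay above every fresh one of its genotype, and the log2 fold change in culture was 2.63 (SE 0.42, edgeR adjusted p = 0.00399) in SelpKO and 1.47 (SE 0.34, adjusted p = 0.0415) in SelpWT cells. Aurka, the kinase of centrosomes and spindle poles, had 159, 161 and 153 CPM in SelpKO vehicle cultures, against 24.1 and 35.7 CPM in fresh SelpKO cells. It had 155, 121 and 207 CPM in SelpWT vehicle cultures, against 129.6, 39.1 and 49.0 CPM in fresh SelpWT cells, where 1 fresh library reached the vehicle range. It rose in SelpKO (log2 2.44, edgeR adjusted p = 0.0118) and had a log2 fold change of 1.25 in SelpWT cells (SE 0.38, adjusted p = 0.143). Neither B cyclin passed in edgeR. Ccnb1 had log2 fold changes of 2.18 in SelpKO and 1.19 in SelpWT cells, and Ccnb2 of 1.40 in SelpKO and 0.63 in SelpWT cells. DESeq2 called both in SelpKO culture (adjusted p = 0.00888 and 0.0241), and limma called Aurka in SelpWT culture (adjusted p = 0.0101).

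None of the 7 checkpoint and anaphase genes passed in edgeR in either genotype, with class medians of 1.60 in SelpKO and 1.18 in SelpWT cells. DESeq2 called Bub1b, Ttk, Ube2c and Fbxo5 in SelpKO culture. Cdc20 had 293, 224 and 339.5 CPM in SelpKO vehicle cultures, against 200.4 and 118 CPM in fresh SelpKO cells, a log2 fold change of 0.85 (SE 0.31, edgeR adjusted p = 0.248). The most abundant gene per kilobase thus had one of the smaller changes. Ube2c, the ubiquitin-conjugating enzyme of the same complex, had log2 fold changes of 1.53 in SelpKO and 1.2 in SelpWT cells. Bub1b, the BubR1 checkpoint protein, had 145, 49.8 and 159.7 CPM in SelpWT vehicle cultures, against 114, 93.9 and 112 CPM in fresh SelpWT cells, the smallest change among the 46 in that genotype (log2 0.25, SE 0.41, edgeR adjusted p = 0.918). In SelpKO cells Bub1b had 199, 228 and 150.3 CPM in vehicle cultures, against 44.0 and 63.6 CPM in fresh cells (log2 1.88, SE 0.49, adjusted p = 0.0735).

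The chromosomal passenger complex corrects faulty kinetochore attachments and later acts in cytokinesis. Its kinase, Aurkb, had 297, 279 and 288 CPM in SelpKO vehicle cultures, against 76.6 and 95.4 CPM in fresh SelpKO cells. SelpWT vehicle cultures had 205, 204 and 259 CPM, against 149, 117 and 90.4 CPM in fresh SelpWT cells. The vehicle and fresh libraries did not overlap, and it rose in both genotypes (log2 1.78, SE 0.25, edgeR adjusted p = 0.00139 in SelpKO, and log2 1.01, SE 0.21, adjusted p = 0.0229 in SelpWT). Incenp, the scaffold of the complex, had 269, 247 and 298 CPM in SelpKO vehicle cultures, against 62.7 and 75.4 CPM in fresh SelpKO cells. It rose there (log2 2.01, edgeR adjusted p = 0.00604), while in SelpWT cells its libraries overlapped (log2 1.07, adjusted p = 0.0790). Birc5 (survivin) and Cdca8 (borealin), the targeting subunits, had log2 fold changes of 1.33 and 1.25 in SelpKO cells, and of 1.31 and 0.92 in SelpWT cells, with no pass in edgeR. DESeq2 called Birc5 in both genotypes and Incenp in SelpWT culture. In SelpWT culture limma called Birc5, Cdca8 and Incenp.

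At the kinetochore, 1 of 7 genes rose in edgeR in each genotype, and it was a different subunit of the same complex. NDC80, NUF2, SPC24 and SPC25 form the NDC80 complex, which binds the spindle microtubules. Spc24 had 160.4, 135 and 162 CPM in SelpKO vehicle cultures, against 39.9 and 47.9 CPM in fresh SelpKO cells (log2 1.83, SE 0.32, edgeR adjusted p = 0.00830). In SelpWT cells Spc24 had 121, 132 and 137 CPM in vehicle cultures, against 132, 88.6 and 66.7 CPM in fresh cells, where the libraries overlapped (log2 0.54, adjusted p = 0.455). Spc25 was the reverse in its calls, with 96.8, 120.5 and 96.6 CPM in SelpWT vehicle cultures, against 65.1, 40.3 and 34.5 CPM in fresh SelpWT cells (log2 1.26, SE 0.30, edgeR adjusted p = 0.0462). It had 121, 81.7 and 98.7 CPM in SelpKO vehicle cultures, against 72.5 and 58.2 CPM in fresh SelpKO cells (log2 0.64, adjusted p = 0.498). The difference between genotypes in the culture response was 1.30 for Spc24 (SE 0.41) and -0.62 for Spc25 (SE 0.44), with an edgeR adjusted p of 1.00 for each. Nuf2 had log2 fold changes of 1.53 in SelpKO and 1.42 in SelpWT cells, Cenpa, the centromeric histone H3 variant, 1.1 in SelpKO and 0.72 in SelpWT cells, and Cenpf 1.09 in SelpKO and 0.70 in SelpWT cells, none of them past the threshold. DESeq2 also called the kinetochore gene Cenpe in SelpKO culture (adjusted p = 0.00913).

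Among the 5 spindle kinesins, Kif11 and Kif22 rose in SelpKO culture and none in SelpWT culture in edgeR. DESeq2 also called Kif2c in SelpKO culture. By limma, Kif15 was called in SelpWT culture, and Kif11 was not called in SelpKO culture. Kif11 (chr19:37376403-37421859), the motor that pushes the spindle poles apart, had 141, 174 and 158 CPM in SelpKO vehicle cultures, against 17.4 and 29.9 CPM in fresh SelpKO cells. In SelpWT cells it had 121, 71.7 and 98.9 CPM in vehicle cultures, against 40.2, 89.0 and 76.7 CPM in fresh cells. Vehicle and fresh libraries lay far apart in SelpKO and overlapped in SelpWT cells, with a 6.89-fold rise in SelpKO (log2 2.79, SE 0.41, edgeR adjusted p = 0.00195) and a log2 fold change of 0.60 in SelpWT cells (SE 0.33, adjusted p = 0.476). Kif22, a chromosome-arm motor, had 280.3, 229.7 and 293 CPM in SelpKO vehicle cultures, against 99.3 and 115 CPM in fresh SelpKO cells (log2 1.35, SE 0.27, edgeR adjusted p = 0.0151). Of the spindle assembly factors, Tpx2, which activates Aurora A on microtubules, rose in both genotypes. It had 237, 176 and 279 CPM in SelpKO vehicle cultures, against 42.5 and 46.8 CPM in fresh SelpKO cells (log2 2.40, edgeR adjusted p = 0.00720). It had 230.5, 141 and 241 CPM in SelpWT vehicle cultures, against 60.0, 83.3 and 93.0 CPM in fresh SelpWT cells (log2 1.48, edgeR adjusted p = 0.0411). Nusap1, a microtubule bundling protein, did not pass (log2 1.03 in SelpKO and 0.85 in SelpWT cells).

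Troap, a microtubule-associated protein, had the largest fold change in both genotypes without passing edgeR's test. It had 59.0, 51.8 and 83.5 CPM in SelpKO vehicle cultures, against 0 and 15.7 CPM in fresh SelpKO cells, and 86.5, 103 and 66.3 CPM in SelpWT vehicle cultures, against 9.18, 8.42 and 2.51 CPM in fresh SelpWT cells. The gap between groups was wide and the libraries did not overlap. The values in edgeR were log2 3.15 (SE 1.80, adjusted p = 0.550) in SelpKO and log2 3.76 (SE 1.57, adjusted p = 0.337) in SelpWT cells. Troap had 0 counts in 1 of the 2 fresh SelpKO libraries and in SelpWT PSGL-1 replicate 1, which shares the fit. The cause of the large SEs was not tested. With limma, Troap was called in SelpWT culture (log2 3.84, adjusted p = 0.0193).

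None of the 7 central spindle and cytokinesis genes passed in edgeR in either genotype. DESeq2 called Prc1, Racgap1, Kif20a and Kif20b in SelpKO culture, and limma called Kif20a in SelpWT culture. Prc1, which cross-links the midzone microtubules, had 233, 175 and 215 CPM in SelpKO vehicle cultures, against 29.8 and 64.9 CPM in fresh SelpKO cells (log2 2.19, SE 0.60, edgeR adjusted p = 0.0850). Racgap1, part of centralspindlin, had log2 fold changes of 1.51 in SelpKO and 0.90 in SelpWT cells. Kif23, its motor partner, had the smallest change of the 46 in SelpKO cells, with 93.2, 55.3 and 87.0 CPM in vehicle cultures, against 51.6 and 67.5 CPM in fresh cells, where the libraries overlapped (log2 0.44, SE 0.68, adjusted p = 0.933). Kif20a, a kinesin that carries the passenger complex to the midzone, had 138, 91.2 and 124 CPM in SelpKO vehicle cultures, against 3.76 and 44.9 CPM in fresh SelpKO cells (log2 2.37, adjusted p = 0.116). Its 2 fresh SelpKO libraries lay far apart.

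Of condensin, topoisomerase and the chromosome surface, 3 of 7 genes rose in each genotype in edgeR. DESeq2 also called Smc2, Smc4 and Ncapg in SelpKO culture and Smc2 in SelpWT culture, and limma also called Smc2 and Ncapd2 in SelpWT culture. Top2a (chr11:98992943-99024189), the topoisomerase that untangles sister chromatids, had 566, 384 and 514 CPM in SelpKO vehicle cultures, against 103 and 127 CPM in fresh SelpKO cells. In SelpWT cells it had 467, 423 and 435 CPM in vehicle cultures, against 224, 275 and 243 CPM in fresh cells. The vehicle libraries of the genotypes overlapped and the fresh ones did not, and the rise was 4.36-fold in SelpKO (log2 2.13, SE 0.26, edgeR adjusted p = 0.000556) and 1.91-fold in SelpWT cells (log2 0.94, SE 0.22, adjusted p = 0.0411). Mki67 (chr7:135689784-135716361), whose product Ki-67 coats mitotic chromosomes and keeps them apart, had 444, 453 and 352 CPM in SelpKO vehicle cultures, against 82.4 and 120.1 CPM in fresh SelpKO cells. It had 544, 559 and 456 CPM in SelpWT vehicle cultures, against 255, 151 and 178 CPM in fresh SelpWT cells. It rose 4.24-fold in SelpKO (log2 SE 0.28, edgeR adjusted p = 0.00112) and 2.84-fold in SelpWT cells (log2 SE 0.23, adjusted p = 0.00357). Within condensin I, the HEAT-repeat subunit Ncapd2 rose in SelpKO (log2 1.94, edgeR adjusted p = 0.0213) with 335, 293 and 519 CPM in vehicle cultures, against 72.9 and 134 CPM in fresh cells. The ATPase subunit Smc4 rose in SelpWT (log2 0.78, edgeR adjusted p = 0.0293) with 339.5, 268 and 273 CPM in vehicle cultures, against 189, 189.9 and 169 CPM in fresh cells.

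**Figure D2:**
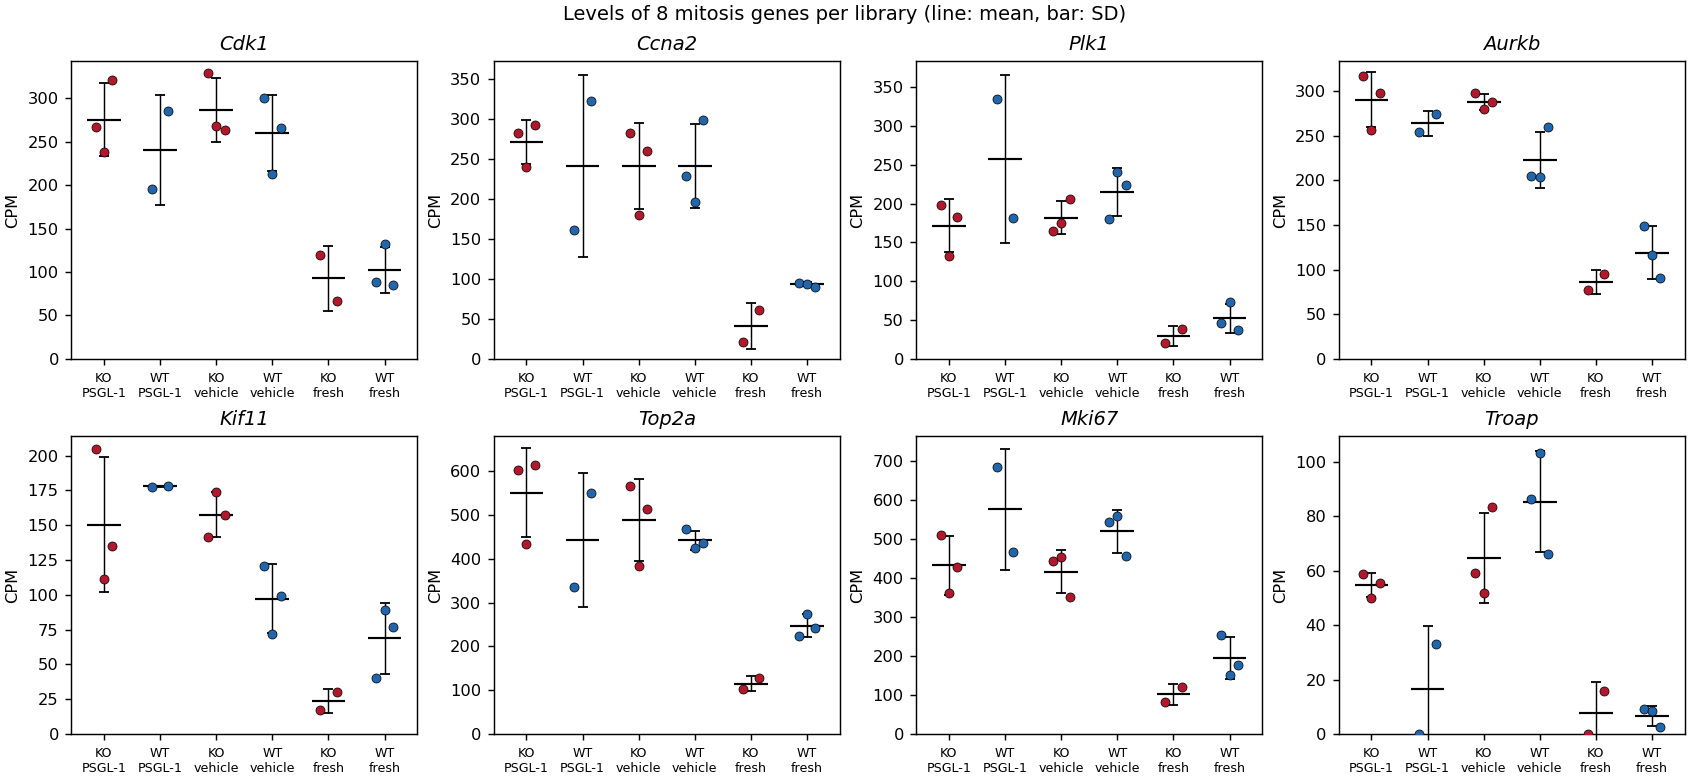
CPM (y axis) of Cdk1, Ccna2, Plk1, Aurkb, Kif11, Top2a, Mki67 and Troap, 1 panel each, in every library (points), with group means (lines) and SDs (bars, cut at 0). Cultured libraries lie above fresh ones for Plk1 and Mki67 in both genotypes, and for Kif11 in SelpKO cells, whose fresh libraries had 17.4 and 29.9 CPM.

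**Figure D3:**
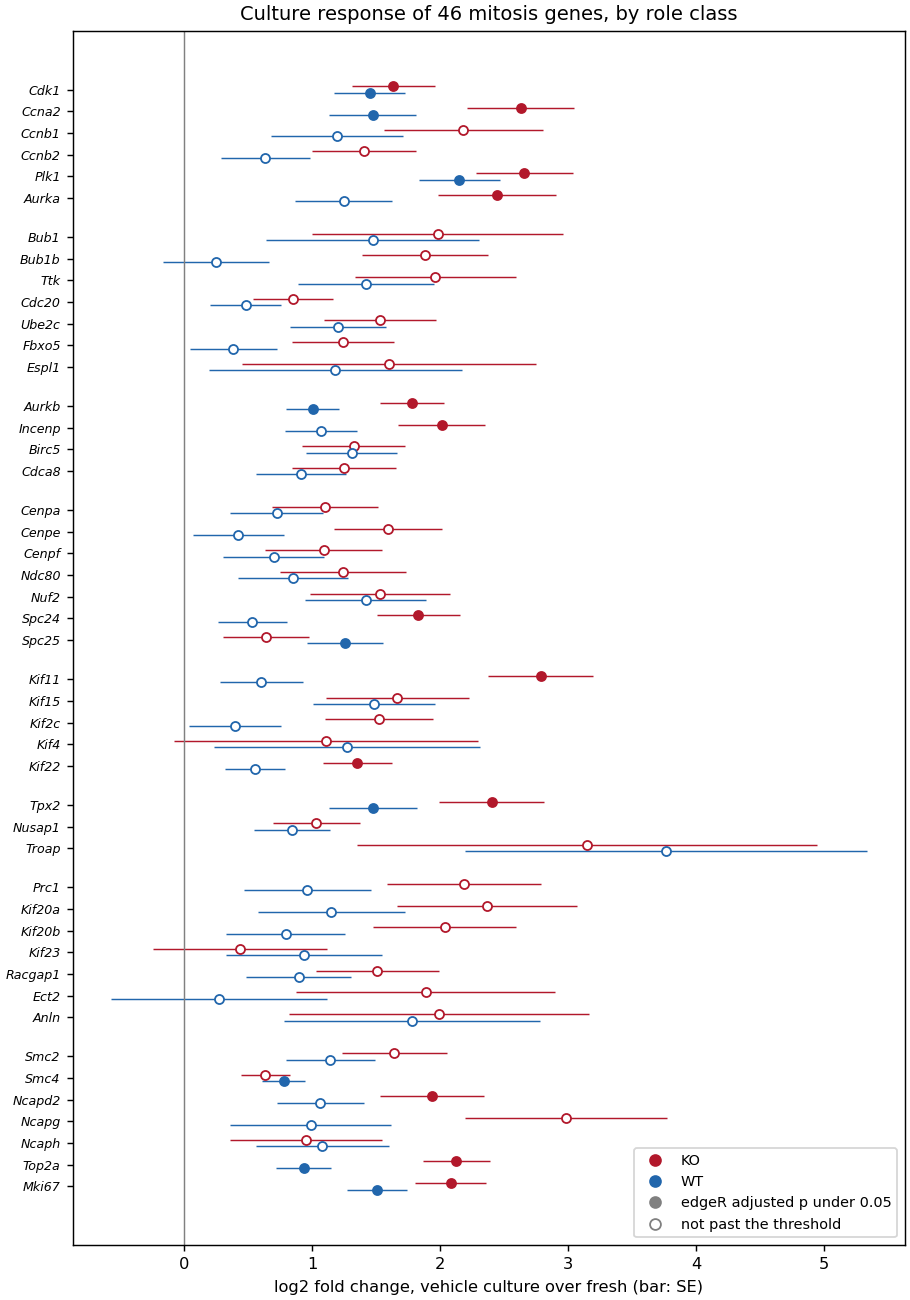
Log2 fold change of each of the 46 genes (y axis), vehicle over fresh, in SelpKO and SelpWT cells with SE (x axis), grouped by role, with filled points past an edgeR adjusted p of 0.05. All 46 values of both genotypes lie above 0, with medians of 1.66 in SelpKO and 1.04 in SelpWT cells.

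The calls in culture depended on single libraries. Leaving out either fresh SelpKO library leaves 1 in that group. The median log2 change of the mitosis genes in culture was 1.55 without replicate 1 and 2.06 without replicate 2. Of the 13 genes called in SelpKO cells, only Ccna2, Plk1, Aurkb, Top2a and Mki67 passed whichever 1 library of the comparison was left out. In SelpWT cells only Plk1 and Mki67 did so. The SelpWT count was 5 without fresh replicate 1, 3 without fresh replicate 2 and 2 without fresh replicate 3. It was 7 without vehicle replicate 2, and 3 without vehicle replicate 1 or vehicle replicate 3. The shares of all genes called in these fits are not given here. A loss of mitosis calls therefore cannot be told from a loss of calls over all genes. The sparse SelpWT PSGL-1 library belongs to neither comparison but shares the fit. Leaving it out changed both the shared spread and the filter, which then kept 15095 genes against 14124, and the test called 27 genes in SelpKO cells, beside 2.4% of all genes, and 13 in SelpWT cells, beside 1.87% of all.

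Other markers moved with culture. The S phase list, 20 genes of DNA replication, summed to 6794 to 7303 CPM in SelpKO vehicle cultures, against 1744 to 3096 CPM in fresh SelpKO cells, and to 6625 to 7403 CPM in SelpWT vehicle cultures, against 3098 to 4125 CPM in fresh SelpWT cells. In edgeR's test 10 of its 20 genes rose in SelpKO and 6 in SelpWT cells, beside 1.23% of all genes in each genotype. HSC markers summed to 2428 to 2597 CPM in SelpKO vehicle cultures, against 3218 to 3888 CPM in fresh SelpKO cells, and to 1673 to 2275 CPM in SelpWT vehicle cultures, against 3022 to 3850 CPM in fresh SelpWT cells. Progenitor markers, mainly Cd34, summed to 751 to 1027 CPM in SelpKO vehicle cultures, against 263 to 348 CPM in fresh SelpKO cells, and to 722 to 922 CPM in SelpWT vehicle cultures, against 371 to 453 CPM in fresh SelpWT cells. The progenitor gene Il7r had 0 counts in all 16 libraries and Fcgr3 in 14. Erythroid markers, mainly Car2, summed to 634 to 761 CPM in SelpKO vehicle cultures, against 1614 to 2461 CPM in fresh SelpKO cells, and to 1051 to 1198 CPM in SelpWT vehicle cultures, against 2212 to 2867 CPM in fresh SelpWT cells. Granulocyte and monocyte markers summed to 201 to 247 CPM in SelpKO vehicle cultures, against 1234 to 1326 CPM in fresh SelpKO cells, and to 123 to 413 CPM in SelpWT vehicle cultures, against 760 to 796 CPM in fresh SelpWT cells. T and NK cell markers summed to 10.2 to 19.0 CPM in SelpKO vehicle cultures, against 41.0 to 46.2 CPM in fresh SelpKO cells, and to 15.6 to 21.6 CPM in SelpWT vehicle cultures, against 70.5 to 103 CPM in fresh SelpWT cells. Endothelial and stromal markers summed to 111 to 140 CPM in SelpKO vehicle cultures, against 168 to 211 CPM in fresh SelpKO cells, and B and plasma cell markers to 14.6 to 38.4 CPM in SelpKO vehicle cultures, against 42.5 to 52.0 CPM in fresh SelpKO cells, while both lists overlapped in SelpWT cells. Replication and progenitor sums were thus higher in culture in both genotypes, and HSC, erythroid, granulocyte and monocyte, and T and NK cell sums lower, while megakaryocyte and platelet, and mast cell and basophil sums overlapped. The part of these shifts in the mitotic changes was not tested.

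In freshly sorted cells no mitosis gene passed between SelpKO and SelpWT at an adjusted p of 0.05 in edgeR's test, beside 0.00708% of all genes higher and 0% lower. The values nevertheless lay mostly on 1 side, with 37 of 46 log2 fold changes below 0, beside 49.2% of all genes, and a median of -0.52, against 0.00 over all genes. At an unadjusted p under 0.05, 13 of 46 were lower, beside 1.47% of all genes, and none was higher, beside 1.37% of all. In 21 of 46 both SelpKO libraries lay below all 3 SelpWT libraries, beside 9.95% of all genes, and in none above them, beside 9.1%. DESeq2 called Kif11 and Top2a lower, beside 0.438% of all genes, and no other of the 46, and limma called none.

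Top2a had 103 and 127 CPM in fresh SelpKO cells, against 224, 275 and 243 CPM in fresh SelpWT cells. The gap was larger than the spread in either group, and the log2 fold change was -1.06 (SE 0.25, edgeR unadjusted p = 0.000653, adjusted p = 1.00). Its adjusted p in DESeq2 was 0.00486. Kif11 had 17.4 and 29.9 CPM in fresh SelpKO cells, against 40.2, 89.0 and 76.7 CPM in fresh SelpWT cells (log2 -1.50, SE 0.38, adjusted p = 1.00 in edgeR and 0.0239 in DESeq2). Mki67 had 82.4 and 120.1 CPM in fresh SelpKO cells, against 255, 151 and 178 CPM in fresh SelpWT cells (log2 -0.91, SE 0.26, edgeR adjusted p = 1.00). In these 3 genes both SelpKO libraries lay below every SelpWT library. Cenpe, the kinesin that carries chromosomes to the spindle equator, had 23.6 and 38.3 CPM in fresh SelpKO cells, against 80.2, 101 and 84.6 CPM in fresh SelpWT cells (log2 -1.48, SE 0.42). Its groups were likewise apart.

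In others the 2 SelpKO libraries lay far apart. Ncapg, a condensin I subunit, had 1.2 and 23.0 CPM in fresh SelpKO cells, against 37.5, 74.7 and 52.5 CPM in fresh SelpWT cells, the lowest fold change of the 46 (log2 -2.19, SE 0.76, edgeR adjusted p = 1.00). Kif20a had 3.76 and 44.9 CPM in fresh SelpKO cells, against 66.6, 54.2 and 104 CPM in fresh SelpWT cells (log2 -1.64, SE 0.68). Replicate 1 of the fresh SelpKO group was the lowest of all 16 libraries for 29 of the 46 genes, and replicate 2 for 5. The same shares over all genes were not computed. Of the 14124 tested genes, 2187 had 0 counts in replicate 1 and 1101 in replicate 2. With replicate 1 as the only fresh SelpKO library, assumed to vary as the other groups do, edgeR called Ncapg (log2 -5.41) and Kif20a (log2 -4.22), beside 0.554% of all genes, and the median over the 46 genes was -1.16, against -0.13 over all genes.

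By role, all 6 cyclins and entry kinases lay below 0 in fresh SelpKO cells with a median of -0.90, as did all 4 passenger complex genes (median -0.37) and all 5 spindle kinesins (median -0.50). Of the cytokinesis genes 5 of 7 lay below 0 (median -1.17), of condensin, topoisomerase and chromosome surface 5 of 7 (median -0.91), of checkpoint and anaphase genes 6 of 7 (median -0.49), and of kinetochore genes 5 of 7 (median -0.38). The 3 spindle assembly genes had a median of 0.07. Cdk1 itself had 119 and 66.5 CPM in fresh SelpKO cells, against 88.6, 133 and 85 CPM in fresh SelpWT cells, an overlapping pair of groups (log2 -0.06, SE 0.31). Spc25 lay highest, with 72.5 and 58.2 CPM in fresh SelpKO cells, against 65.1, 40.3 and 34.5 CPM in fresh SelpWT cells (log2 0.54, SE 0.33, edgeR adjusted p = 1.00).

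**Figure D4:**
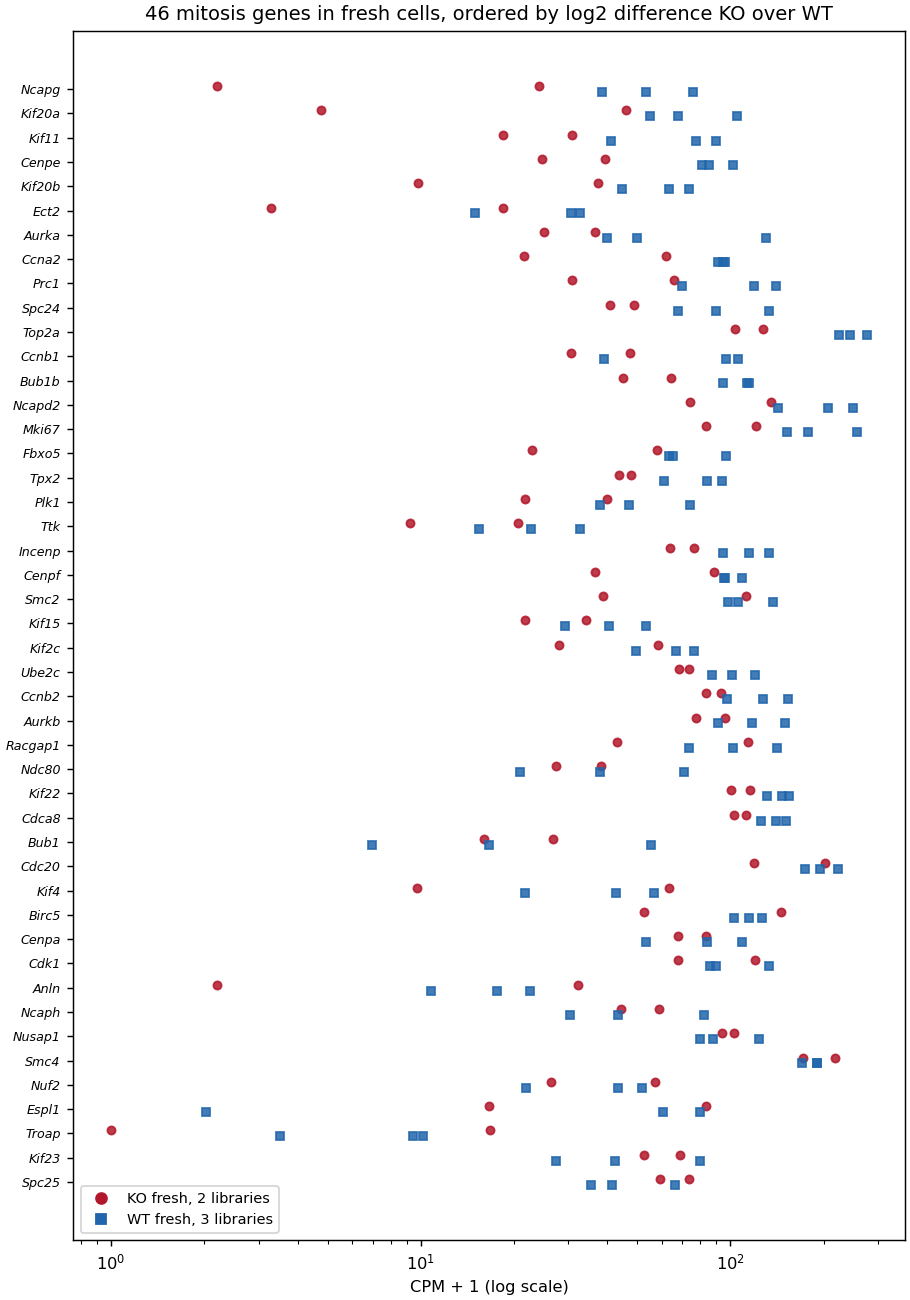
CPM + 1 (x axis, log scale) of each of the 46 genes (y axis) in the 2 fresh SelpKO libraries (circles) and the 3 fresh SelpWT libraries (squares), ordered by log2 fold change, SelpKO over SelpWT. In 21 of 46 genes both SelpKO points lie below all SelpWT points, from Ncapg at the low end, and Spc25 lies at the other end.

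Marker lists that did not overlap between the fresh genotypes were the S phase list, at 1744 to 3096 CPM in SelpKO and 3098 to 4125 CPM in SelpWT cells, and the granulocyte and monocyte list, at 1234 to 1326 CPM in SelpKO and 760 to 796 CPM in SelpWT cells. The progenitor list (263 to 348 CPM in SelpKO, 371 to 453 CPM in SelpWT), the T and NK cell list (41.0 to 46.2 CPM in SelpKO, 70.5 to 103 CPM in SelpWT) and the endothelial and stromal list (168 to 211 CPM in SelpKO, 133 to 164 CPM in SelpWT) were also apart. No gene of these lists passed edgeR's test at an adjusted p of 0.05. Of the S phase genes 19 of 20 lay below 0 (median -0.58), beside 49.2% of all genes. Of the granulocyte and monocyte genes 8 of 10 lay above 0 (median 1.05), beside 48.8% of all genes. Within that list only Lyz2 and Prtn3 were detected in every library. The others had 0 counts in 9 to 14 of the 16 libraries, so most of these fold changes rest on few libraries. HSC markers overlapped, at 3218 to 3888 CPM in SelpKO and 3022 to 3850 CPM in SelpWT cells. The erythroid list (1614 to 2461 CPM in SelpKO, 2212 to 2867 CPM in SelpWT) and the megakaryocyte and platelet list (1396 to 1607 CPM in SelpKO, 1387 to 2013 CPM in SelpWT) overlapped as well. The mast cell and basophil list (1.88 to 2.46 CPM in SelpKO, 2.22 to 11 CPM in SelpWT) and the B and plasma cell list (42.5 to 52.0 CPM in SelpKO, 38.2 to 56.4 CPM in SelpWT) did too. The part of these lists in the mitotic difference was not tested.

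The test of the difference in culture response, SelpKO minus SelpWT, called no mitosis gene at an adjusted p of 0.05 in edgeR, beside 0% of all genes, nor in limma. Of the 46, 40 lay above 0, beside 52% of all genes, with a median of 0.56, against 0.04 over all genes, and 9 were higher at an unadjusted p under 0.05, beside 1.5% of all genes. Kif11 had the largest value, 2.18 (SE 0.50, edgeR adjusted p = 1.00), and DESeq2 called it with an adjusted p of 0.00925, beside 0.358% of all genes. Top2a followed in p with 1.19 (SE 0.33, edgeR adjusted p = 1.00), and Spc25 had the lowest value at -0.62. This contrast uses the same fresh libraries as the comparison above and is not separate evidence from it.

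In vehicle cultures no difference between genotypes was detected in any of the 46 genes. The edgeR test called none, beside 0.00708% of all genes higher and 0% lower, none had an unadjusted p under 0.05, beside 1.53% of all higher and 1.3% lower, and DESeq2 and limma called none. The values were split 23 above and 23 below 0, beside 49.8% of all genes above and 47.7% below, with a median of -0.00, against 0.00 over all genes. Aurkb, Kif11 and Kif2c did not overlap in the higher direction (5.76% of all genes) and Mki67 in the lower (3.72% of all). Kif11 was highest in fold change (log2 0.68, SE 0.33, edgeR adjusted p = 1.00), although in fresh cells it was among the lowest, and Kif20a was lowest (log2 -0.42, SE 0.57, adjusted p = 1.00). Mki67 had 444, 453 and 352 CPM in SelpKO vehicle cultures, against 544, 559 and 456 CPM in SelpWT vehicle cultures (log2 -0.33, SE 0.23, adjusted p = 1.00).

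PSGL-1 changed no mitosis gene past an adjusted p of 0.05 in edgeR's test in either genotype, beside 0% of all genes, and neither DESeq2 nor limma called any. At an unadjusted p under 0.05, none of the 46 passed in SelpKO cells, beside 0.85% of all genes higher and 0.552% lower, and 3 were higher in SelpWT cells, beside 3.17% of all. In SelpKO cells the median over the 46, PSGL-1 over vehicle, was 0.04, against 0.00 over all genes, with 28 above 0, beside 47.8% of all genes. Incenp, Ttk, Prc1 and Ncaph did not overlap in the higher direction (4.24% of all genes) and Aurka in the lower (3.74% of all). Incenp had 314, 320.3 and 343 CPM in SelpKO PSGL-1 cultures, against 269, 247 and 298 CPM in SelpKO vehicle cultures (log2 0.25, SE 0.28, edgeR adjusted p = 1.00). Kif23 had the largest value (log2 0.75, SE 0.60, adjusted p = 1.00) and Nuf2 the smallest (log2 -0.52, SE 0.47, adjusted p = 1.00).

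In SelpWT cells the median over the 46 genes, PSGL-1 over vehicle, was -0.09, against -0.11 over all genes, with 17 above 0, beside 40.2% of all genes. Cenpe, Kif11 and Kif22 did not overlap in the higher direction (5.87% of all genes) and Troap in the lower (8.1% of all). Cenpe had 243 and 171 CPM in SelpWT PSGL-1 cultures, against 142, 57.4 and 132 CPM in SelpWT vehicle cultures (log2 0.89, SE 0.39, edgeR adjusted p = 0.774). Between genotypes within PSGL-1 cultures edgeR, DESeq2 and limma called none of the 46, beside 0.00708% of all genes in edgeR, and 1, Cenpe, was lower at an unadjusted p under 0.05, beside 2.97% of all. Of the 46, 30 lay above 0, beside 57.4% of all genes, and the median was 0.13, against 0.17 over all genes. Incenp, Spc24, Spc25 and Troap did not overlap in the higher direction (11.5% of all genes) and Aurka and Cenpe in the lower (6.32% of all). Cenpe had 133, 68.8 and 103 CPM in SelpKO PSGL-1 cultures, against 243 and 171 CPM in SelpWT PSGL-1 cultures (log2 -1.04, SE 0.39, adjusted p = 0.765). The test of the difference in PSGL-1 response, SelpKO minus SelpWT, called none in edgeR, DESeq2 or limma, beside 0% of all genes in edgeR. None passed an unadjusted p of 0.05, beside 2.36% of all genes higher and 1.97% lower, and the median was 0.15, the same as over all genes.

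The SelpWT PSGL-1 values rest on 2 unlike libraries. In replicate 1, the library with fewest genes detected, 21 of the 46 genes lay below and 4 above the range of the other 10 cultured libraries. The share of all genes outside that range was not computed. Counted the same way, SelpWT vehicle replicate 2 had 9 below, and SelpKO PSGL-1 replicates 1 and 3 had 9 above each. Of the 14124 tested genes, 5165 had 0 counts in SelpWT PSGL-1 replicate 1, against at most 3162 in any other library. The low ones included Troap with 0 counts, Kif4, a chromosome-arm kinesin, with 0.562 CPM, Anln with 1.91 CPM, Kif23 with 12.4 CPM and Prc1 with 41.4 CPM. The high ones were Plk1 with 334 CPM, Mki67 with 686 CPM, Cenpe with 243 CPM and the checkpoint kinase Ttk with 152 CPM. Without this library the median of PSGL-1 over vehicle in SelpWT cells was 0.24 and none of the 46 was called. With it as the only SelpWT PSGL-1 library, assumed to vary as the other groups do, edgeR called 11 of the 46 genes between PSGL-1 and vehicle, beside 19.7% of all genes, and 13 of the 46 between genotypes, beside 19.8% of all. The median of PSGL-1 over vehicle was then -0.63 over the 46 genes, against -0.61 over all genes.

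**Figure D5:**
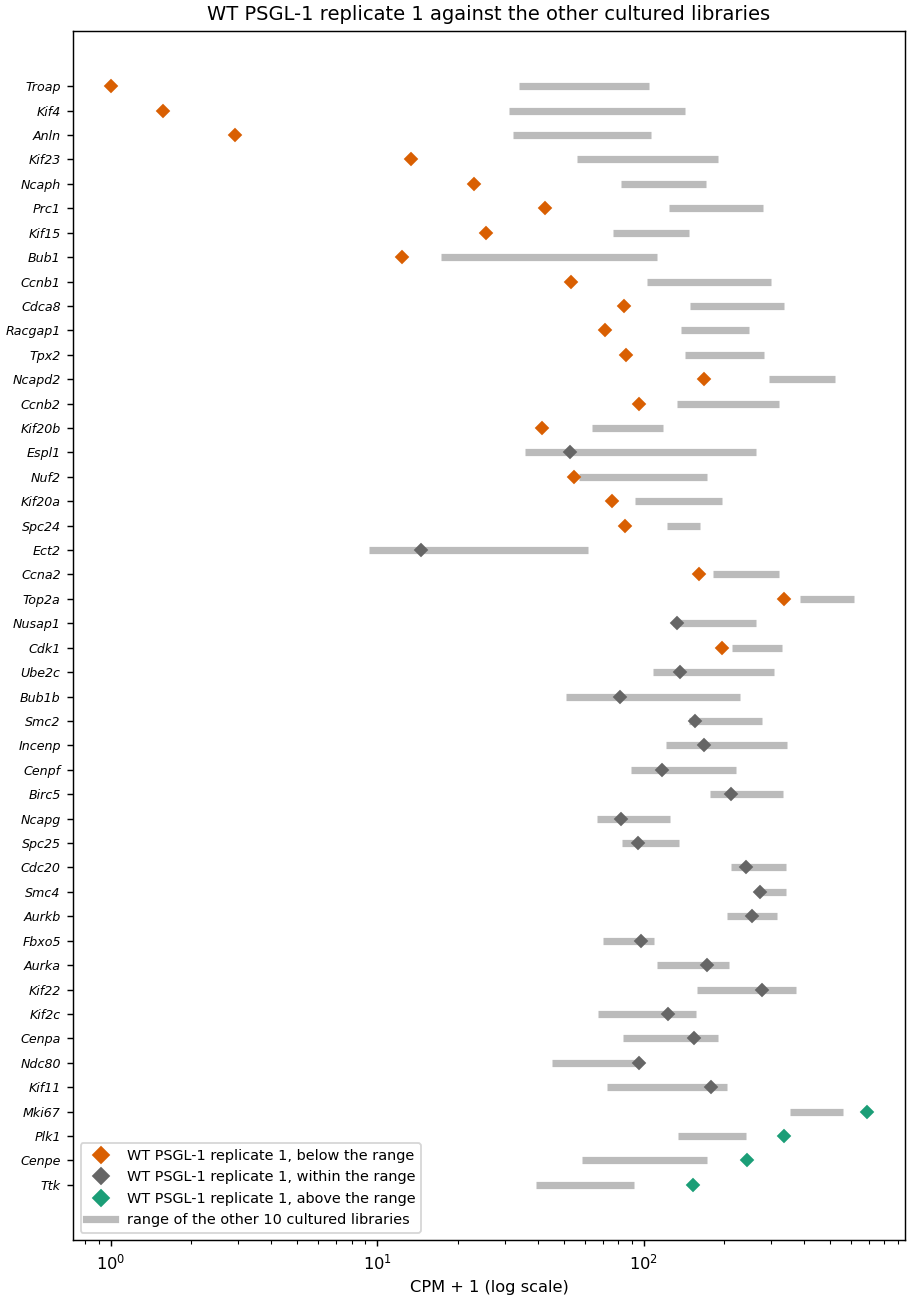
CPM + 1 (x axis, log scale) of each of the 46 genes (y axis) in replicate 1 of the SelpWT PSGL-1 group, beside the range of the other 10 cultured libraries. In this library 21 genes lie below that range, among them Troap with 0 counts, and 4 lie above it. The share of all genes outside the range was not computed.

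Averaged over fresh, vehicle and PSGL-1 conditions, edgeR called no mitosis gene between SelpKO and SelpWT, beside 0.0212% of all genes higher and 0.0142% lower, and limma called none. The median was -0.11, against 0.07 over all genes, and 4 of the 46 were lower at an unadjusted p under 0.05, beside 2.87% of all. Cenpe had the lowest value (log2 -0.94, SE 0.22, edgeR adjusted p = 0.334), and DESeq2 called it (adjusted p = 0.00713) with Mki67 (log2 -0.55 in edgeR, DESeq2 adjusted p = 0.0194), beside 0.551% of all genes lower. Espl1, separase, had the highest value (log2 0.68, SE 0.61, edgeR adjusted p = 1.00). The SelpWT average includes the sparse library, where Cenpe and Mki67 were above every other cultured library.

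A further 145 mitosis genes in the table, all tested, gave the wider pathway. In SelpKO culture 8 (5.52%) rose in edgeR's test, beside 1.23% of all genes, and none fell. In SelpWT culture 3 (2.07%) rose, near the 1.23% of all genes, and none fell. Mybl2, which encodes B-MYB, the activating partner of MuvB, had 164 ± 54.0 CPM in SelpKO vehicle cultures and 29.8 ± 3.73 CPM in fresh SelpKO cells (SD, n = 3 and 2), a log2 fold change of 2.48 (SE 0.50, edgeR adjusted p = 0.0159). In SelpWT cells it had 173 ± 23.7 CPM in vehicle cultures and 54.2 ± 40.8 CPM in fresh cells (SD, n = 3 each), a log2 fold change of 1.77 (SE 0.42, edgeR adjusted p = 0.0449). Tfdp1, the DP1 partner of E2F factors, and Tacc3, a spindle protein bound by Aurora A, rose in both genotypes as well. The other 5 that rose in SelpKO culture were Plk4, the kinase of centriole duplication, the kinase gene Pbk, Pkmyt1, an inhibitory kinase of CDK1, the centromere gene Cenpm, and Cdca2, whose product brings a phosphatase to chromosomes. The median over the 145 genes was 0.88 in SelpKO and 0.58 in SelpWT culture, and -0.30 in fresh SelpKO over SelpWT cells, where 100 of 145 lay below 0, beside 49.2% of all genes. None of the 145 passed there, and 9 were lower at an unadjusted p under 0.05, beside 1.47% of all, and 1 higher, beside 1.37%. In the comparisons other than these 3, edgeR called none of the 145. At an unadjusted p under 0.05, 7 were lower in SelpKO than in SelpWT cells in the average over conditions, beside 2.87% of all genes, and each other direction and comparison held 0 to 3, beside 0.552% to 3.96% of all genes. Subunits of the anaphase-promoting complex and checkpoint (26 genes) had a median of 0.38 in SelpKO and 0.38 in SelpWT culture, and cohesin and securin genes (17 genes) 0.17 in SelpKO and 0.14 in SelpWT culture.

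Some members share exons with a gene on the opposite strand, and the labels do not state whether the counting used strand, so reads of the 2 genes cannot be told apart there. The overlap covered 29.3% of the exon length of Kif20a (with Cdc23), 22.8% of Ube2c (Tnnc2), 15.1% of Kif4 (Pdzd11), 13.4% of Ncapg (Lcorl), 12.5% of Ccna2 (Exosc9) and 11.1% of Prc1 (Rccd1).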

How the data were processed

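Library preparation used a SMART Ultra-Low Input v4 kit on total RNA, per the labels. The deposited table holds raw counts per gene, which the authors made with STAR 2.7.5c and featureCounts on mm10, with MultiQC 1.10 and DESeq2 also listed, per the submitters' processing notes; no source here states the annotation or strand setting. Counts were tested as deposited in edgeR 4.0.16 (R 4.3.3; TMM scaling, filterByExpr by group, glmQLFit with robust spread, glmQLFTest), with 1 mean per group over 16 libraries, no block, and Benjamini-Hochberg adjustment over 14124 genes at a threshold of 0.05. CPM are counts scaled to a library total of 1000000, and 3 counts were 0.122 to 0.238 CPM. Fold changes rest on edgeR's default prior count. DESeq2 1.42.0, limma 3.58.1, other scalings and filters, and fits without single libraries were alternatives. No 2 libraries of a group agreed within sampling noise (chi-square per degree of freedom at least 59.8). The common biological coefficient of variation was 0.977. The code was tested on simulated data.

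The members, lists and comparisons were chosen with earlier results of these data known. Named genes were members passing in any comparison, the 2 most abundant per role, and the largest and smallest fold change per comparison with at least 5 CPM in 1 group (30 members). The rule for the other mitosis genes was up to 2 per list among those passing, but all that passed were named. The other members named had non-overlapping groups, a share of overlapped exons or an extreme level, and were chosen after their values were seen. Promoters were RefSeq's, build GRCm38.p6, and exon lengths and gene positions GENCODE vM21 (GRCm38). A marker gene counted in the HSC sum is not reported singly here.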

Additional observations from a re-analysis of the deposited data

How the results depend on the processing

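Across settings that changed scaling, filter, tool or the libraries fitted, 902 of 975 values of single genes kept their direction and their side of the threshold, 60 fell short of it, 12 newly passed and 1 changed sign. The sign change was Bub1b in SelpWT culture, whose log2 fold change ran from -0.070 without SelpWT vehicle replicate 3 to 0.62 without SelpWT vehicle replicate 2. Its cause was not tested. DESeq2 called 2 of the 46 genes between fresh genotypes, 29 in SelpKO culture, 2 in the average over conditions and 1 in the difference of culture response. limma called 18 in SelpWT culture, beside 2.92% of all genes, and 12 in SelpKO culture, beside 1.27%. Leaving the sparse SelpWT PSGL-1 library out of the fit gave 27 in SelpKO culture. With single libraries left out, the count of called genes ran from 0 to 2 for fresh SelpKO over SelpWT, 7 to 17 for SelpKO culture, 2 to 7 for SelpWT culture, 0 to 13 for SelpKO over SelpWT in PSGL-1, 0 to 11 for PSGL-1 in SelpWT cells, 0 to 8 for the average over conditions, 0 to 2 for the difference of culture response and 0 to 9 for the difference of PSGL-1 response, and stayed at 0 for SelpKO over SelpWT in vehicle and for PSGL-1 in SelpKO cells. The median over the 46 genes ran from -1.16 to -0.50 between fresh genotypes, 1.55 to 2.06 in SelpKO culture and 0.92 to 1.14 in SelpWT culture. For PSGL-1 in SelpWT cells it ran from -0.63 to 0.24, and for SelpKO over SelpWT in PSGL-1 from -0.14 to 0.67. Without SelpWT PSGL-1 replicate 2 the medians over all genes there were -0.61 and 0.77. For the average over conditions it ran from -0.21 to 0.07. The differences of culture and PSGL-1 response ran from 0.54 to 1.01 and from -0.18 to 0.63. In the fits that gave 1.01 and 0.63, the medians over all genes were 0.28 and 0.81.

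Replicate numbers were shared between groups, and a fit with the replicate number of the titles as a block called 5 genes in SelpWT culture and changed no other count of members called by over 1.5 times. Deviations of libraries matched by the replicate number of the titles, or by sets of 6 library numbers, correlated between -0.08 and 0.107. These were 34 pairings, some the same under both keys, and the numbers were not taken as pairing. Every library correlated best with its own number in PSGL-1 over vehicle in SelpKO cells (6 of 6), but 2 of 6 did so in each of the other comparisons with 3 pairs.

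The 46 genes summed to at least 43674 counts per library, but single members had few counts in single libraries, among them Troap with 0. What limits the precision of each gene was not tested. Counting floors cover counting error only. A count of genes called is a statement about the threshold, and a gene that missed it is not shown to be equal between groups.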
